A study of Mus musculus with 9 samples.

Results

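Notch signalling genes were followed through 3 populations of cultured mouse myoblasts. The set held 10 genes, chosen by symbol from the 47729 genes in the count files: the receptors Notch1, Notch2 and Notch3, the ligands Dll1 and Jag1, the DNA-binding factor Rbpj, and the targets Hes1, Hey1, Heyl and Nrarp. Of these, 9 had enough reads to be tested, and Heyl did not. The cells were myoblasts, the proliferating precursors of muscle fibres, from skeletal muscle of the inbred strain FVB/N, with no transgene or other allele named in the labels. The groups, with 3 libraries each, were SRCs at cycle 3 (SRC3), FRCs at cycle 1 (FRC1) and the parental population (PAR). SRCs and FRCs are 2 reserve cell populations, cells that stay undifferentiated when a myoblast culture is made to form myotubes, and the labels do not spell out the abbreviations. The reserve cells were grown under proliferation conditions for 2 passages between isolation and harvest. Each reserve population was sampled at 1 cycle only, so the kind of reserve cell and the number of cycles cannot be told apart. The labels do not say whether the 3 libraries of a group came from separate cultures or whether a population was clonal, so the tests rest on the spread between the 3 libraries of a group, which may be technical.

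Notch receptors are cut by proteases when they bind a ligand on a neighbouring cell, and the freed intracellular domain enters the nucleus and joins Rbpj. Rbpj represses its targets when it binds co-repressors and activates them when it binds the intracellular domain with a Mastermind co-activator. In skeletal muscle the pathway is known for holding satellite cells, the muscle stem cells, in an undifferentiated and quiescent state, and for opposing the myogenic factor Myod1. Hes1, Hey1 and Heyl, targets of the pathway, encode transcriptional repressors, and the target Nrarp encodes a small protein that dampens the Notch response.

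The libraries held between 13012996 and 14336279 gene counts, and reads were found for 17071 to 17416 genes in a library. Levels are given as CPM, read counts scaled to the gene counts of their library and, between libraries, by TMM factors, and 3 counts in a library correspond to 0.209 to 0.231 CPM. Of 6 myoblast markers, 5 were tested. The summed level was 1489 to 1635 CPM in SRC3, 1951 to 2085 CPM in FRC1 and 2171 to 2215 CPM in PAR. The markers did not move alike. Pax7, Des and Cdh15 had their lowest mean in SRC3 and their highest in PAR. Myod1 averaged 539.1 CPM in SRC3, 770.1 CPM in FRC1 and 775.8 CPM in PAR, and Itga7 averaged 313.4, 289.4 and 289.5 CPM in those groups. Myf5, a defining myoblast marker, had no reads in FRC1 or PAR and 1 read in SRC3. The summed level of 6 markers of differentiated muscle was 7.06 to 23.0 CPM in SRC3, 80.0 to 97.1 CPM in FRC1 and 3.05 to 4.41 CPM in PAR. In such bulk RNA, fewer cells of a type and less RNA per cell cannot be told apart.

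Promoter sequences show what the members' own start sites carry of the motifs that the pathway's factors bind. RefSeq windows (build GRCm38.p6) were matched by symbol for 7 of the 10 genes, with 2 start sites each for Rbpj and Dll1, and the 250 bases before each of the 9 starts were searched on both strands. Hes1, Hey1 and Heyl had no entry. The core motif of RBPJ, GTGGGAA, was in 0 of the 9 windows and in 5.4% of 32851 promoters. Its shorter form TGGGAA, which every GTGGGAA also contains, was in 2 of the 9 windows, both of Rbpj, and in 21.6% of all promoters. The 2 Rbpj windows, chr5:53590096-53590345 and chr5:53590236-53590485, overlap. A TGGGAA on the opposite strand, 65 bases before the first start and 205 before the second, is the same site in both. The first window also held TGGGAA 149 bases before its start. The N-box CACNAG, bound by HES proteins, was in 4 of the 9 windows, those of Notch1, Notch2, Notch3 and Nrarp, and in 36.7% of all promoters. The E-box CACGTG was in 1 of the 9 windows, that of Nrarp, and in 6.0% of all promoters. Printed are a stretch of 1 of the 2 Rbpj windows, for its TGGGAA, and the windows of Notch3 and Nrarp, which held more than 1 match. The Rbpj stretch runs from 250 to 133 bases before the start at chr5:53590096-53590213 on the plus strand, with TGGGAA in capitals. The Notch3 window lies at chr17:32166891-32167140 on the minus strand, with 2 N-boxes in capitals, the second on the opposite strand. The Nrarp window lies at chr2:25180508-25180757 on the plus strand, with the E-box and 2 N-boxes, both on the opposite strand, in capitals. A match to these letters is a description of the window and does not show binding.
Rbpj: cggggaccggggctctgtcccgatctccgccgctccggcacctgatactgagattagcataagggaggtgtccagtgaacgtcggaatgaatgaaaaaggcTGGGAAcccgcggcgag
Notch3: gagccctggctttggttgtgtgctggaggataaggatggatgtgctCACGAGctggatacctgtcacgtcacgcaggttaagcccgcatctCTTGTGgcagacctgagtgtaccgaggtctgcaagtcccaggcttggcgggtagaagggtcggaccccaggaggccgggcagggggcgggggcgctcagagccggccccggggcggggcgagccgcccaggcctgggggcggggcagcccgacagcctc
Nrarp: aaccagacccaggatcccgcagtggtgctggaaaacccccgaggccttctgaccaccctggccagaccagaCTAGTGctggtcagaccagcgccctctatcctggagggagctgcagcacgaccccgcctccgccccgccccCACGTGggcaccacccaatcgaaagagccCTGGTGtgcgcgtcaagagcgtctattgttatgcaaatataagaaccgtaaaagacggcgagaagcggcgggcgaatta

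Each reserve population differed from the parental cells in 7 of the 9 tested genes of the set. Of all tested genes 37.9% differed in SRC3 and 28.3% in FRC1. The count of 7 depended on single libraries. In FRC1 it was 4 without FRC1 replicate 2, FRC1 replicate 3 or PAR replicate 3. In SRC3 it was 5 without SRC3 replicate 1, SRC3 replicate 2 or PAR replicate 1. In SRC3 against PAR the targets Hey1 and Hes1, the receptors Notch3 and Notch2 and the ligand Dll1 fell, while Jag1 and Rbpj rose. In FRC1 against PAR the receptors Notch1 and Notch2, Dll1, Rbpj, Hey1 and Nrarp fell and Jag1 rose. SRC3 and FRC1 differed from each other in Hes1 and Hey1, lower in SRC3, and in Rbpj and Nrarp, higher in SRC3. Counts of all genes were fitted together with edgeR's quasi-likelihood test, and a gene passed at a Benjamini-Hochberg adjusted p under 0.05 over 12540 tested genes.

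By that threshold 7 of the 9 tested genes passed in SRC3 against PAR, where 37.9% of all tested genes passed. Of the 7, 2 rose and 5 fell, where 17.8% of all tested genes rose and 20.2% fell. Their libraries did not overlap in 8 of 9 genes, against 49.1% of all tested genes. In FRC1 against PAR 7 of 9 passed, against 28.3% of all tested genes, and the libraries of 7 did not overlap, against 44.2%. Of these, 1 rose and 6 fell, where 13.6% of all tested genes rose and 14.7% fell. In SRC3 against FRC1 4 of 9 passed, against 33.5% of all tested genes, and the libraries of 6 did not overlap, against 42.8%. Of these, 2 rose and 2 fell, where 15.5% of all tested genes rose and 18% fell. The median absolute log2 fold change over the 9 genes was 0.66 in SRC3 against PAR (0.18 over all tested genes), 0.44 in FRC1 against PAR (0.16) and 0.46 in SRC3 against FRC1 (0.16). The signed medians over the 9 genes were -0.21, -0.43 and 0.01 in those comparisons. The comparisons share libraries, so their counts are not independent of each other.

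**Figure D1:**
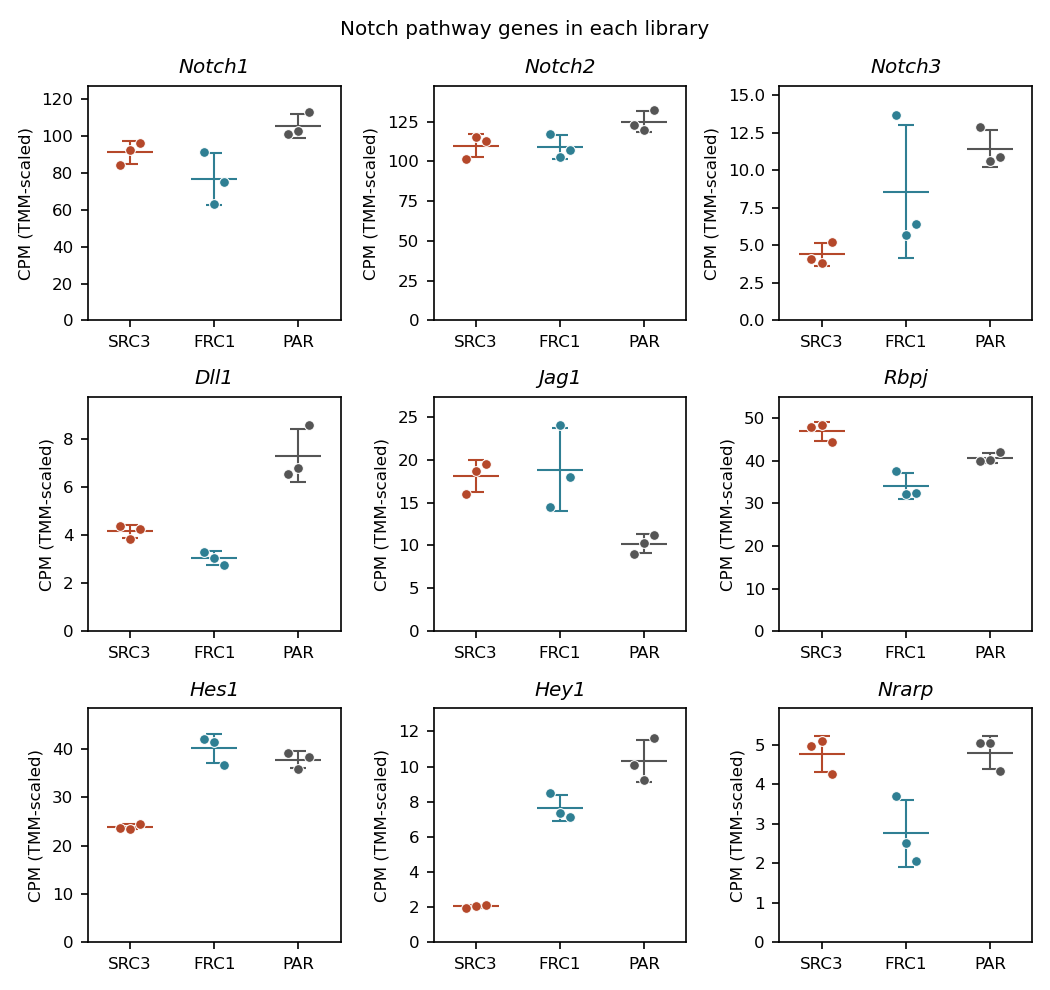
Level of each tested gene in every library, in TMM-scaled CPM on axes that start at 0, for SRC3, FRC1 and PAR, with each point a library, the long line the mean of 3 and the error bar 1 SD. The 3 SRC3 libraries sit far below the others for Hey1 (1.98 to 2.13 CPM) and below them for Hes1 (23.5 to 24.5 CPM), while the 3 PAR libraries sit below the others for Jag1 (9.02 to 11.2 CPM).

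Hey1, which encodes a basic helix-loop-helix repressor induced by Notch, showed the largest change of the set. It stood at 1.98, 2.08 and 2.13 CPM in SRC3, at 8.48, 7.34 and 7.12 CPM in FRC1, and at 10.1, 9.26 and 11.6 CPM in PAR. The 3 populations did not overlap, with SRC3 lowest and PAR highest. Behind these values stood 82 reads over the 3 SRC3 libraries, 317 in FRC1 and 429 in PAR. Hey1 fell 5-fold in SRC3 against PAR (log2 fold change -2.32, SE 0.16, 95% interval -2.66 to -1.98; edgeR adjusted p = 7.1e-10), and ranked 155 of 12540 genes by p-value. It was 3.69-fold lower in SRC3 than in FRC1 (log2 fold change -1.88, SE 0.17; edgeR adjusted p = 3.9e-08). In FRC1 against PAR it fell 1.35-fold (log2 fold change -0.44, SE 0.13; edgeR adjusted p = 0.016). That smaller call was lost with DESeq2 (adjusted p = 0.058) and in edgeR without FRC1 replicate 3 (0.075), FRC1 replicate 2 (0.0535) or PAR replicate 3 (0.1). The gene is annotated at chr3:8663359-8667256 on the minus strand (GENCODE M21, GRCm38; ENSMUSG00000040289).

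Hes1, a repressor of the same superfamily and a classical Notch target, fell in SRC3 but did not pass between FRC1 and PAR. Its level was 23.7, 23.5 and 24.5 CPM in SRC3, 42.1, 41.5 and 36.7 CPM in FRC1, and 39.1, 35.8 and 38.4 CPM in PAR. SRC3 lay below every other library, and FRC1 overlapped PAR. Hes1 was 1.58-fold lower in SRC3 than in PAR (edgeR log2 fold change -0.66, SE 0.075, 95% interval -0.82 to -0.5; adjusted p = 7.4e-07) and 1.68-fold lower than in FRC1 (log2 fold change -0.75, SE 0.075; edgeR adjusted p = 1.5e-07). For FRC1 against PAR the 95% interval of the log2 fold change was -0.06 to 0.23 (edgeR adjusted p = 0.4). Hes1 (ENSMUSG00000022528) lies at chr16:30064384-30067796 on the plus strand.

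Nrarp, a feedback inhibitor that acts on the Notch intracellular domain, was lowest in FRC1. It had 4.98, 5.09 and 4.25 CPM in SRC3, 3.71, 2.52 and 2.07 CPM in FRC1, and 5.04, 5.05 and 4.33 CPM in PAR. FRC1 lay below every other library, and SRC3 overlapped PAR. Nrarp fell 1.74-fold in FRC1 against PAR (edgeR log2 fold change -0.80, SE 0.2; adjusted p = 0.0053) and was 1.73-fold higher in SRC3 than in FRC1 (log2 fold change 0.79, SE 0.2; edgeR adjusted p = 0.0044). In SRC3 against PAR the 95% interval of the log2 fold change was -0.39 to 0.37 (edgeR adjusted p = 0.98). The gene (ENSMUSG00000078202) lies at chr2:25180758-25183339 on the plus strand, directly after the printed window. An opposite-strand gene, Gm38287, shares 2051 of its 2582 exonic bases and was counted at 0 reads in SRC3, 0 in FRC1 and 1 in PAR, and whether the counting used the strand is not given in the sources used here.

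Heyl, a further repressor of the HEY group, was almost without reads. It had 1 read over the 3 libraries in SRC3, 1 in FRC1 and 3 in PAR, at or under the limit of 3 counts, so no fold change is given. A change of Heyl (ENSMUSG00000032744, chr4:123233556-123249875, plus strand) was not detectable at this depth.

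Notch3, the receptor gene with the lowest level per length of the 3 described, was lowest in SRC3. Its level was 4.10, 3.85 and 5.24 CPM in SRC3, 13.7, 5.66 and 6.41 CPM in FRC1, and 12.9, 10.6 and 10.9 CPM in PAR. SRC3 lay below both other groups, whereas FRC1 was split, with replicate 1 above every PAR library and replicates 2 and 3 below them. Notch3 fell 2.6-fold in SRC3 against PAR (log2 fold change -1.38, SE 0.33, 95% interval -2.12 to -0.64; edgeR adjusted p = 0.009). The call was lost without SRC3 replicate 2 (log2 fold change -1.29, adjusted p = 0.056). For FRC1 against PAR the log2 fold change was -0.43 (SE 0.29; edgeR adjusted p = 0.32), and without FRC1 replicate 1 it was -0.92 (adjusted p = 0.00013). For SRC3 against FRC1 it was -0.95 (SE 0.34, 95% interval -1.73 to -0.18; edgeR adjusted p = 0.06). This difference passed with DESeq2 (adjusted p = 0.036), without a filter on low counts (0.005), and without FRC1 replicate 3 (-1.11, 0.037) or FRC1 replicate 2 (-1.17, 0.014), and it was -0.46 without FRC1 replicate 1 (0.059). Notch3 (ENSMUSG00000038146) is annotated at chr17:32120820-32166852 on the minus strand.

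Notch1, whose product is a principal receptor of satellite cells, was lower in FRC1 than in PAR. It stood at 84.3, 92.5 and 96.4 CPM in SRC3, at 91.1, 63.1 and 75.2 CPM in FRC1, and at 101.1, 102.5 and 113.0 CPM in PAR. Both reserve populations lay below every PAR library, and they overlapped each other. Notch1 fell 1.38-fold in FRC1 against PAR (log2 fold change -0.47, SE 0.11; edgeR adjusted p = 0.012). In SRC3 against PAR the log2 fold change was -0.21 (SE 0.11, 95% interval -0.46 to 0.04; edgeR adjusted p = 0.17). It passed there without a filter (adjusted p = 0.0042), in a fit of SRC3 and PAR alone (0.013), and when FRC1 replicate 2 (0.029) or FRC1 replicate 1 (0.019) was left out of the model. In SRC3 against FRC1 the log2 fold change was 0.25 (SE 0.11; edgeR adjusted p = 0.12), and it passed with DESeq2 (0.031), without a filter (0.00093) and without FRC1 replicate 1 (log2 fold change 0.40, adjusted p = 0.00066). Notch1 (ENSMUSG00000026923) lies at chr2:26457903-26516663 on the minus strand.

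Notch2, the other main receptor gene of satellite cells, changed least among the genes that passed. Its level was 101.8, 115.2 and 112.8 CPM in SRC3, 117.4, 102.7 and 107.0 CPM in FRC1, and 122.8, 119.9 and 132.5 CPM in PAR. The reserve libraries lay below the PAR libraries by small margins and overlapped each other. Notch2 fell 1.14-fold in SRC3 (edgeR log2 fold change -0.19, SE 0.062; adjusted p = 0.022) and 1.15-fold in FRC1 (log2 fold change -0.20, SE 0.062; edgeR adjusted p = 0.021) against PAR. Between SRC3 and FRC1 the 95% interval of the log2 fold change was -0.12 to 0.14 (edgeR adjusted p = 0.91). The SRC3 call was lost without SRC3 replicate 1 (adjusted p = 0.15), PAR replicate 3 (0.14) or PAR replicate 1 (0.05). The FRC1 call was lost without FRC1 replicate 3 (0.079), FRC1 replicate 2 (0.095) or PAR replicate 3 (0.11). Notch2 (ENSMUSG00000027878) lies at chr3:98013527-98150361 on the plus strand.

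Dll1 and Jag1, which encode ligands of the Delta and Jagged families, moved in opposite directions in both reserve populations. Dll1 stood at 4.40, 3.85 and 4.25 CPM in SRC3, at 3.33, 3.08 and 2.78 CPM in FRC1, and at 6.58, 6.81 and 8.59 CPM in PAR. Jag1 stood at 16.0, 18.7 and 19.5 CPM in SRC3, at 14.5, 24.1 and 18.01 CPM in FRC1, and at 9.02, 10.3 and 11.2 CPM in PAR. Neither gene's reserve libraries overlapped the PAR libraries, and for Dll1 SRC3 and FRC1 did not overlap each other either.

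Dll1 fell 1.76-fold in SRC3 (edgeR log2 fold change -0.81, SE 0.16; adjusted p = 0.00039) and 2.39-fold in FRC1 (log2 fold change -1.26, SE 0.17; edgeR adjusted p = 1.4e-05) against PAR. Jag1 rose 1.77-fold in SRC3 (edgeR log2 fold change 0.83, SE 0.16; adjusted p = 0.0011) and 1.85-fold in FRC1 (log2 fold change 0.89, SE 0.16; edgeR adjusted p = 0.00099) against PAR. These 4 calls held in every alternative and every left-out library that was run. Neither ligand passed between SRC3 and FRC1, with a log2 fold change of 0.45 for Dll1 (95% interval 0.07 to 0.83; edgeR adjusted p = 0.066) and -0.06 for Jag1 (95% interval -0.39 to 0.26; edgeR adjusted p = 0.79). Dll1 (ENSMUSG00000014773) lies at chr17:15367354-15376872 and Jag1 (ENSMUSG00000027276) at chr2:137081456-137116644, both on the minus strand. Dll1 shares 867 exonic bases with the opposite-strand gene A930024N18Rik, which had 4 reads in SRC3, 8 in FRC1 and 12 in PAR.

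Rbpj, the DNA-binding factor on which all 4 receptors converge, was higher in SRC3 and lower in FRC1 than in PAR. With Hey1 it was 1 of the 2 genes of the set that passed in all 3 comparisons. Its level was 47.8, 48.4 and 44.4 CPM in SRC3, 37.6, 32.1 and 32.5 CPM in FRC1, and 39.9, 40.1 and 42.0 CPM in PAR. The 3 populations did not overlap, with SRC3 highest and FRC1 lowest. Rbpj was 1.38-fold higher in SRC3 than in FRC1 (log2 fold change 0.46, SE 0.072; edgeR adjusted p = 4.4e-05). It rose 1.15-fold in SRC3 against PAR (edgeR log2 fold change 0.21, SE 0.071; adjusted p = 0.027) and fell 1.19-fold in FRC1 against PAR (log2 fold change -0.26, SE 0.073; edgeR adjusted p = 0.013). The difference from PAR did not pass in SRC3 with DESeq2 (adjusted p = 0.0502) or without SRC3 replicate 2 (0.061), SRC3 replicate 1 (0.074), PAR replicate 2 (0.073) or PAR replicate 1 (0.08). In FRC1 it did not pass without FRC1 replicate 3 (0.065), FRC1 replicate 2 (0.059) or PAR replicate 3 (0.0524). Rbpj (ENSMUSG00000039191) spans chr5:53466152-53657362 on the plus strand, so that the printed stretch lies inside the annotated gene, before an internal start.

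**Figure D2:**
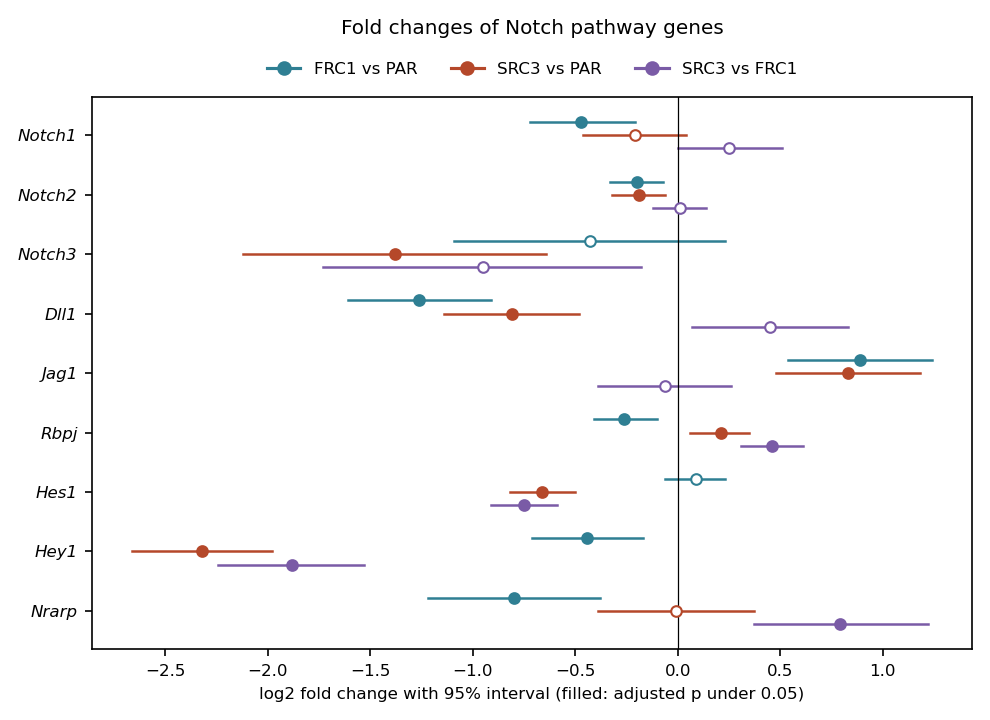
Log2 fold change of each tested gene with its 95% interval in the 3 comparisons, where filled points passed at an adjusted p under 0.05 and open points did not. Hey1 lies at -2.32 in SRC3 against PAR and -1.88 in SRC3 against FRC1, Jag1 lies to the right in both comparisons with PAR, and Rbpj and Nrarp lie right of 0 in SRC3 against FRC1 and left of 0 in FRC1 against PAR.

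Within FRC1 the libraries were not alike for these genes. Replicate 1 was the FRC1 library nearest to the PAR mean for 8 of the 9 tested genes, and replicate 3 was nearest for Hes1. Over all tested genes replicate 1 was nearest in 47.4%, and over the genes that passed between FRC1 and PAR in 63.2%. Without FRC1 replicate 1 the log2 fold change of Jag1 against PAR was 1.05 and that of Notch1 was -0.61, against 0.89 and -0.47 with it.

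Levels can be compared between genes only per length, and were divided by the exonic bases of each gene (CPM per kb). The divisor was every annotated exonic base over all transcripts of a gene, 14232 for Notch1, 10782 for Notch2 and 8089 for Notch3. The transcripts present may be shorter, so shares, and the order of genes close in level such as Notch2 and Notch1, depend on this divisor. Among the receptors Notch2 had the highest level per kb, with 10.2 ± 0.66 in SRC3, 10.1 ± 0.702 in FRC1 and 11.6 ± 0.612 CPM per kb in PAR (SD, n = 3 each). Notch1 followed with 6.40 ± 0.434 in SRC3, 5.37 ± 0.987 in FRC1 and 7.41 ± 0.456 CPM per kb in PAR. Notch3 made up 3.17% of the summed receptor level in SRC3, 6.2% in FRC1 and 6.94% in PAR, so the mix of receptors was mostly Notch2 and Notch1 in every population. The fourth receptor gene, Notch4, was not tested for lack of reads.

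The ligand with the highest level per length was neither Dll1 nor Jag1 but Jag2, the second Jagged gene. Jag2 stood at 30.2 ± 1.07 in SRC3, 30.6 ± 1.03 in FRC1 and 25.1 ± 0.443 CPM per kb in PAR, and made up 88.0%, 88.5% and 87.8% of the summed ligand level in those populations. It rose in SRC3 (edgeR log2 fold change 0.26, SE 0.048; adjusted p = 0.0002) and in FRC1 (0.28, SE 0.048; 0.00018) against PAR. Dll1 made up 2.89% of the ligand level in SRC3, 2.1% in FRC1 and 6.04% in PAR, and Jag1 9.05%, 9.33% and 6.1%. The share of Dll1 was thus below that of Jag1 in both reserve populations and about equal to it in PAR.

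Of the 4 described targets Hes1 held most of the summed level per length, with 82.5% in SRC3, 85.3% in FRC1 and 78.6% in PAR. Hey1 held 4.44% in SRC3, 10.1% in FRC1 and 13.4% in PAR, and Nrarp held 13.0%, 4.58% and 7.91%. In SRC3 Nrarp thus stood above Hey1 per length, at 1.85 ± 0.176 against 0.631 ± 0.0232 CPM per kb. In PAR it stood below Hey1, at 1.86 ± 0.159 against 3.16 ± 0.372 CPM per kb (SD, n = 3). The divisor of Nrarp includes the 2051 of 2582 exonic bases that it shares with the opposite-strand gene Gm38287. If the counting ignored the strand, reads there may not have been counted. The level of Nrarp per length would then be understated, so its place beside Hey1 and the shares of the targets are uncertain.

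**Figure D3:**
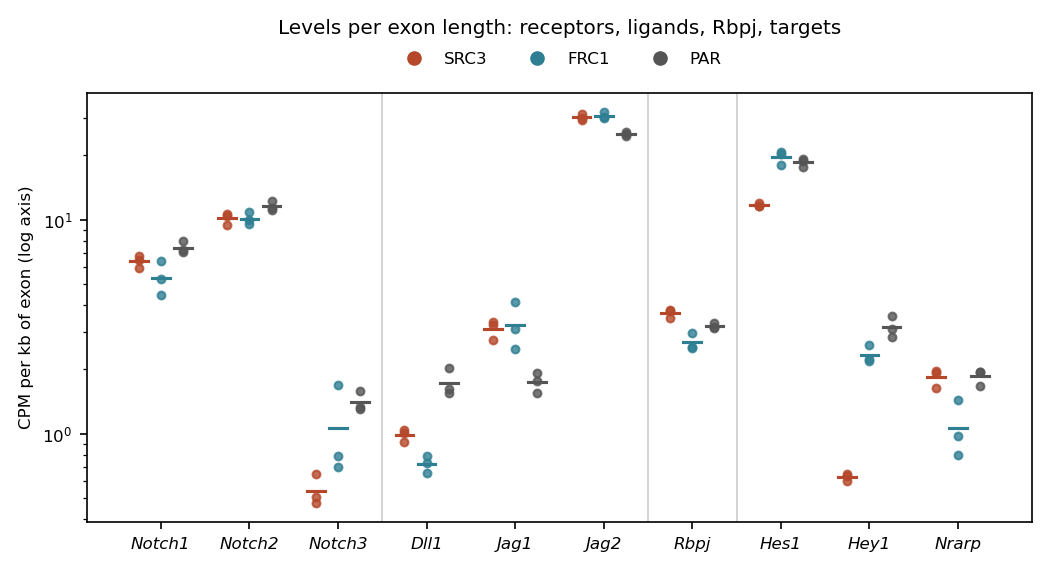
Level per kb of exon (CPM per kb, log axis) of the receptors, ligands, Rbpj and targets, with points for the libraries of SRC3, FRC1 and PAR and a line at each mean. Of the genes drawn, Jag2 stands highest among the ligands and Hes1 among the targets. Jag2 is at 30.2 CPM per kb in SRC3 and 25.1 in PAR. With all exonic bases of each gene as the divisor, Hey1 and Nrarp change places between SRC3 and PAR.

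The other genes of the pathway were taken from a list of 65, of which 46 were tested. In SRC3 against PAR 9 rose, 11 fell and 26 did not pass, or 43.5% called against 37.9% of all tested genes. In FRC1 against PAR 9 rose, 9 fell and 28 did not pass, or 39.1% against 28.3%. In SRC3 against FRC1 6 rose, 9 fell and 31 did not pass, or 32.6% against 33.5%. Their median log2 fold changes were -0.02, 0.02 and -0.06, and those of all tested genes 0.006, 0.003 and 0.

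Among the modulators of ligand and receptor activity, Dlk2, a Delta-like protein without the Delta motif of canonical ligands, moved in opposite directions in the reserve populations. It had 42.4, 48.8 and 40.3 CPM in SRC3, 22.8, 16.4 and 17.9 CPM in FRC1, and 31.2, 30.8 and 33.1 CPM in PAR. It rose in SRC3 (edgeR log2 fold change 0.47, SE 0.095; adjusted p = 0.00077) and fell in FRC1 (-0.74, SE 0.1; 4.3e-05) against PAR, and was higher in SRC3 than in FRC1 (1.2, SE 0.1; 3e-08). Lfng, which encodes the Fringe glycosyltransferase that alters which ligands a receptor answers, rose in FRC1 against PAR, at 15.8 against 12.2 CPM (edgeR log2 fold change 0.37, SE 0.11; adjusted p = 0.019). Adam10, the protease gene for the first activating cut, was higher in SRC3 than in FRC1, at 161.5 against 121.0 CPM (edgeR log2 fold change 0.42, SE 0.071; adjusted p = 0.00019). Against PAR, at 142.4 CPM, Adam10 fell in FRC1 (edgeR log2 fold change -0.24, SE 0.071; adjusted p = 0.02) and did not pass in SRC3 (0.18, SE 0.07; 0.0512). Psen2, a catalytic subunit gene of gamma-secretase, which makes the second cut, fell in SRC3 against PAR to 1.26 against 2.25 CPM (-0.83, SE 0.3; 0.037).

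Numbl, whose product is related to the Notch inhibitor Numb, showed the largest fall among the other pathway genes in both comparisons of SRC3. Its level was 15.5, 19.7 and 15.6 CPM in SRC3, 35.6, 34.1 and 34.0 CPM in FRC1, and 31.6, 31.3 and 36.1 CPM in PAR. The SRC3 libraries lay below all others (edgeR log2 fold change -0.97, SE 0.094, adjusted p = 8.8e-08 against PAR, and -1.03, SE 0.094, 3.9e-08 against FRC1). Dtx4, a Deltex ubiquitin ligase gene, also fell in SRC3 against PAR, at 41.3 against 64.5 CPM (-0.64, SE 0.066; 1.7e-07). Dtx3l, of the same family, rose in FRC1 against PAR at a low level, 2.60 against 1.11 CPM (1.22, SE 0.27; 0.0019). Of the 9 tested turnover and inhibitor genes, 1 rose and 4 fell in SRC3 against PAR, 1 rose and 2 fell in FRC1 against PAR, and 0 rose and 2 fell in SRC3 against FRC1. That is 55.6%, 33.3% and 22.2% called, where 37.9%, 28.3% and 33.5% of all tested genes were.

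Maml2, Maml3 and L3mbtl3 were among the genes of the nuclear complex around Rbpj that fell in a reserve population. Of the 8 tested genes in the list of Rbpj and its co-activators, 1 rose and 1 fell in SRC3 against PAR, 0 rose and 4 fell in FRC1 against PAR, and 2 rose and 0 fell in SRC3 against FRC1. That is 25%, 50% and 25% called, against the same shares of all tested genes (37.9%, 28.3% and 33.5%). Maml2, a Mastermind co-activator gene, had 6.11 CPM in FRC1 against 9.62 CPM in PAR (edgeR log2 fold change -0.65, SE 0.14; adjusted p = 0.0014) and rose in SRC3 against FRC1, at 8.38 against 6.11 CPM (0.45, SE 0.14; 0.017). Maml3 fell in FRC1 against PAR as well, at 41.1 against 52.3 CPM (-0.35, SE 0.085; 0.005). Of the 9 tested co-repressor genes, 1 rose and 4 fell in SRC3 against PAR, 1 rose and 1 fell in FRC1 against PAR, and 2 rose and 4 fell in SRC3 against FRC1, or 55.6%, 22.2% and 66.7% called against those shares. L3mbtl3, which encodes an Rbpj-binding repressor of Notch targets, fell in SRC3 against PAR at 18.1 against 25.8 CPM (-0.51, SE 0.082; 5.2e-05) and was lower in SRC3 than in FRC1 (-0.46, SE 0.083; 0.0002). Rita1, which encodes a protein that carries Rbpj out of the nucleus, was lower in SRC3 than in FRC1 (-0.44, SE 0.12; 0.01), whereas Cir1, a gene of an Rbpj co-repressor, was higher (0.41, SE 0.14; 0.03). Kdm5a, a histone demethylase gene of the repressor complex, fell in FRC1 against PAR at 66.2 against 80.6 CPM (-0.28, SE 0.061; 0.0018).

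The remaining HES and HEY genes were mostly without enough reads, and Hes6 was the only one tested beside Hes1 and Hey1. Hes6, a family member known for opposing Hes1 and promoting myogenic differentiation, stood above Hes1 per length (54.6 ± 1.82 CPM per kb in SRC3) and had 98.8 ± 3.3 CPM in SRC3, 118.8 ± 8.76 CPM in FRC1 and 103.4 ± 3.57 CPM in PAR (SD, n = 3 each). It rose in FRC1 against PAR (edgeR log2 fold change 0.20, SE 0.058; adjusted p = 0.014) and was lower in SRC3 than in FRC1 (-0.27, SE 0.058; 0.0013). The summed level of differentiated muscle markers was also highest in FRC1, and its part in these values was not tested.

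Collagen genes of types V and VI, known as Notch targets in muscle stem cells, moved in both directions. Col5a3 rose in SRC3 (2.73 against 1.42 CPM; edgeR log2 fold change 0.94, SE 0.27; adjusted p = 0.0084) and in FRC1 (3.68 against 1.42 CPM; 1.36, SE 0.25; 0.00045) against PAR. Col6a1 rose in SRC3 against PAR, at 2.56 against 1.51 CPM (0.75, SE 0.24; 0.02). Col5a1 rose in FRC1 against PAR, at 188.7 against 134.0 CPM (0.49, SE 0.071; 7.6e-05). In SRC3, at 112.2 CPM, Col5a1 fell against PAR (-0.26, SE 0.072; 0.0098) and was lower than in FRC1 (-0.75, SE 0.072; 3.5e-07). These genes are also expressed by fibroblasts, whose 5 markers summed to 5.54 to 7.69 CPM in SRC3, 4.70 to 5.45 CPM in FRC1 and 7.53 to 7.76 CPM in PAR. The sums came mostly from Pdgfra and Ly6a. Lum had no reads in any library, and the group means of Col1a1 and Dcn reached at most 0.36 and 0.126 CPM.

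**Figure D4:**
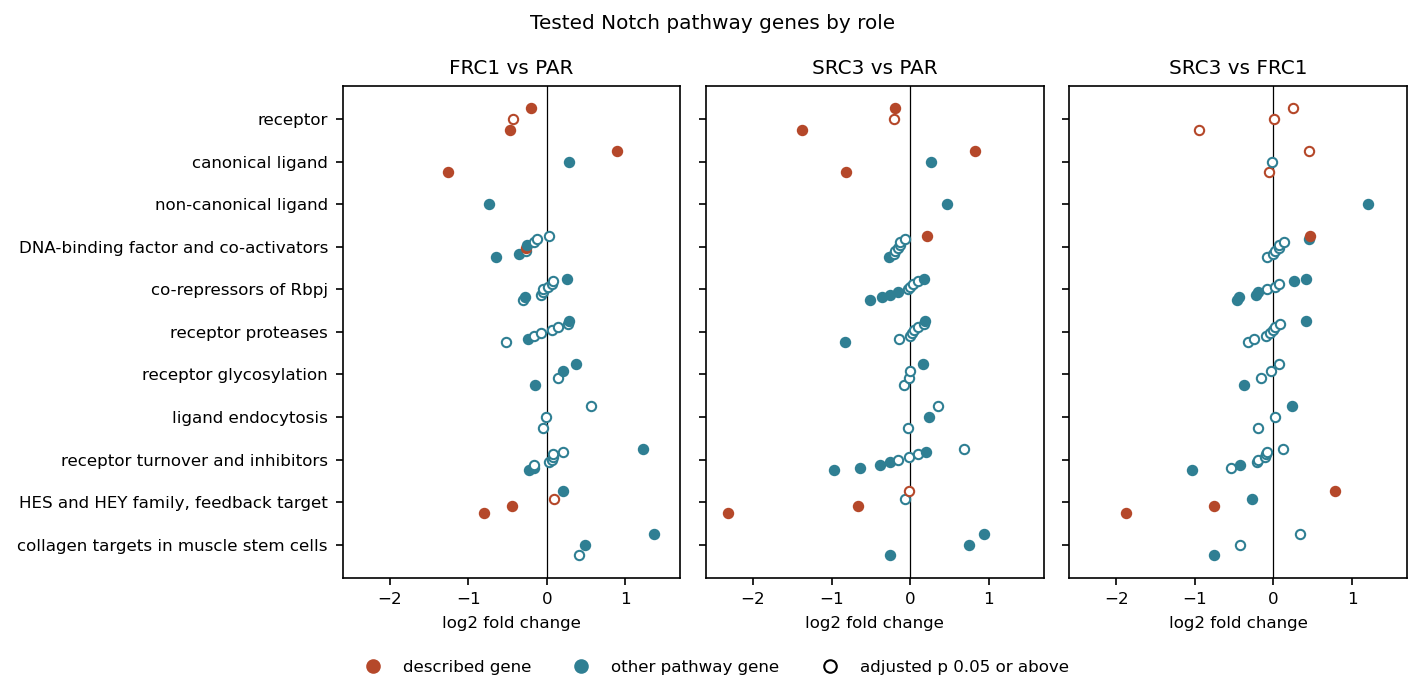
Log2 fold change of every tested pathway gene, arranged by role down the page, in FRC1 against PAR, SRC3 against PAR and SRC3 against FRC1, with filled points at an adjusted p under 0.05 and the described genes in red. Hey1 is the leftmost point in both comparisons of SRC3, and most other genes lie near 0.

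Several cell types other than myoblasts express Notch genes, and their markers were summed in each library. The 5 endothelial markers came to 0.147 to 0.38 CPM in SRC3, 0.151 to 0.559 CPM in FRC1 and 0.071 to 0.536 CPM in PAR, and none was tested. Notch3 is also a gene of pericytes and smooth muscle, whose 6 markers summed to 60.4 to 73.2 CPM in SRC3, 347.3 to 505.6 CPM in FRC1 and 166.6 to 197.8 CPM in PAR. Their levels ran in different directions. Acta2 averaged 8.58 CPM in SRC3, 199.2 CPM in FRC1 and 67.1 CPM in PAR, and Tagln 6.59, 217.1 and 112.3 CPM, whereas Cspg4 averaged 52.3, 7.81 and 0.695 CPM in those groups and made up most of the SRC3 sum. The defining markers Pdgfrb and Myh11 were at or below 0.231 CPM in every library. The 5 Schwann cell markers summed to 14.95 to 31.1 CPM in SRC3, 1.96 to 2.35 CPM in FRC1 and 1.61 to 2.41 CPM in PAR, mostly from Ngfr, and the defining markers Sox10 and S100b had no reads in any library. The 4 haematopoietic markers summed to 2.73 to 4.40 CPM in SRC3, 2.20 to 3.42 CPM in FRC1 and 2.91 to 3.43 CPM in PAR. That sum came mostly from Cd68, which averaged 3.38, 2.80 and 3.14 CPM in those groups. Adgre1 had no reads in any library, and the group means of Ptprc and Itgam reached at most 0.047 and 0.0233 CPM. The part of these summed levels in the Notch results was not tested.

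Hey1 and Notch3 had the widest range of group means among the genes with at least 5 CPM, 2.24 and 1.36 on the log2 scale, and were compared with all other tested genes by the root mean square difference of centred log2 CPM over the 9 libraries. The genes most like Hey1 were Def6 at 0.0796, Pde4b at 0.102 and Scamp5 at 0.134, against a median of 0.989 over all genes. Def6, a guanine nucleotide exchange factor gene, averaged 3.45 CPM in SRC3, 11.8 CPM in FRC1 and 16.2 CPM in PAR, and Pde4b, a cyclic AMP phosphodiesterase gene, averaged 20.5, 80.1 and 98.8 CPM in those groups. The genes most like Notch3 were Ogdhl at 0.225, Tob1 at 0.235 and Pnmal2 at 0.246, against a median of 0.677. Tob1, an antiproliferative gene, averaged 12.5 CPM in SRC3, 22.1 CPM in FRC1 and 29.0 CPM in PAR. These values describe likeness over 9 libraries that share 3 groups.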

How the data were processed

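Polyadenylated RNA was read as single 50-nt reads. The authors deposited whole-number read counts per gene, not normalized. For alignment and counting, build GRCm38, HTSeq 0.9.1 and HISAT2 2.1.0 are listed in the submitters' processing notes, beside DESeq2, without settings. Summary lines that name no gene stayed out of library sizes (5.92 to 7.92% of uniquely aligned reads lay in no gene). Identifiers of 47224 genes matched GENCODE M21, and 505 did not. Replicate pairs differed by more than sampling noise (chi-square per degree of freedom 1.81 to 7.47).

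Groups came from the sample titles. With edgeR 4.0.16 in R 4.3.3, filterByExpr (count 10, total 15) kept 12540 genes, TMM factors were 0.994 to 1.012, and all 9 libraries entered a single robust quasi-likelihood model (glmQLFit, glmQLFTest, two-sided, 6 residual degrees of freedom, common coefficient of variation 0.0535). Standard errors were the log2 fold change divided by the root of F. Alternatives were RLE factors, library sizes alone, no filter, 5 CPM in 3 libraries, DESeq2 1.42.0, limma 3.58.1 voom, a fit of 2 groups, a replicate block and each library left out. The 10 genes, the pathway and marker lists and the motifs were chosen with earlier results of these data known. Other pathway genes were named by rule, up to 4 per comparison and direction taking the largest changes past the threshold in genes whose higher group reached 1 CPM, and Jag2, Hes6 and the untested genes to account for a role. The fit was tested on simulated data. Counts of reads without molecular identifiers carry more than counting error.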

Additional observations from a re-analysis of the deposited data

How the results depend on the processing

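Over the genes of the set, 419 values in the alternatives and left-out libraries kept their direction and their side of the threshold, 19 no longer passed, 13 newly passed and 8 changed sign, none of which passed either way. In SRC3 against PAR, Nrarp (log2 fold change -0.01) was 0.07 without SRC3 replicate 3 and 0.03 without PAR replicate 2 or PAR replicate 1. In SRC3 against FRC1, Notch2 (0.01) was -0.01 without SRC3 replicate 3 or SRC3 replicate 2 and -0.02 without FRC1 replicate 2, and Jag1 (-0.06) was 0.03 without SRC3 replicate 1 and 0.16 without FRC1 replicate 2, in a range of -0.22 to 0.16 over the left-out libraries. With a library left out, 2327 to 3987 genes and 4 to 8 members passed in FRC1 against PAR, against 3550 and 7, with 2327 genes without FRC1 replicate 3 and 4 members without FRC1 replicate 2, FRC1 replicate 3 or PAR replicate 3. The same ranges were 3845 to 4924 genes and 5 to 8 members in SRC3 against PAR, and 3371 to 4281 genes and 4 to 5 members in SRC3 against FRC1. DESeq2 called 6 members in each comparison. Same-numbered libraries of different groups correlated at -0.07 to 0.118 in their deviations, and differently numbered ones at -0.089 to 0.122. Each PAR library correlated most, in FRC1 and in SRC3, with the library of its own number, at 0.022 to 0.118. Between FRC1 and SRC3 the same-numbered pairs ran from -0.07 to 0.032, below the 0.122 of FRC1 replicate 3 with SRC3 replicate 2. The ranges overlap, so they cannot decide whether the replicate numbers pair the libraries. With a replicate block 4798 genes passed in SRC3 against PAR, 3560 in FRC1 against PAR and 4221 in SRC3 against FRC1, with 7, 7 and 5 members, and Notch3 passed in SRC3 against FRC1 (log2 fold change -0.93, edgeR adjusted p = 0.013). The causes of these changes were not tested. Depth limits Heyl, and at 2.06 to 11.5 CPM Hey1, Nrarp, Dll1 and Notch3 rest on few reads per library.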
